A study of Rattus norvegicus with 12 samples.

Results

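The genes described here are those annotated to the KEGG pathway of neuroactive ligand-receptor interaction, the list of receptors for neurotransmitters, hormones and lipid mediators together with many of their peptide ligands. Genes of the TRP channel group were left out, and a gene was kept when its mean over 12 libraries reached 0.05 FPKM, the unit that divides a gene's read fragments by its length and by the size of the library. This left 87 genes of the 270 in the pathway (32.2%), among 21556 genes in all. Of the 87, 64 encode receptors, 22 encode ligands or the proteases that activate receptors, and 1, *Pard3*, encodes a polarity regulator that is neither. The members were thus chosen by their measured mean FPKM, and the levels below are a description with no test. Just inside the minimum lay *Lhb*, the β subunit of luteinizing hormone, at 0.0505 FPKM, and just outside lay *Galp*, a galanin-like peptide, at 0.0477 FPKM.

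Most of these receptors either couple to G proteins or are ion channels opened by the transmitter itself, and a smaller number are nuclear receptors that act on transcription. Sensory neurons use such receptors to read ATP, proteases, prostaglandins, bradykinin and opioids released near their endings, and they release peptides of the same pathway themselves. Several receptors work only as assemblies of different subunits, so that a cell needs the mRNA of each partner.

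The RNA came from ND7/23, an established line in which rat neurons of the dorsal root ganglion were fused with the mouse neuroblastoma N18Tg2. The 4 groups of 3 libraries were control cells, menthol at 100 μM, which activates the cold receptor of sensory neurons, Wnt3a at 100 ng/ml, a secreted protein that stabilizes β-catenin, and both agents at these doses, all for 6 h. The comparisons ask how menthol and Wnt3a, alone and together, change the cells' RNA. No vehicle is stated for the control, and nothing in the labels says whether the 3 libraries of a group came from separate cultures, so p-values measure only the spread between these libraries. Reads on genes, recovered from the steps in which FPKM moves, numbered 36914010 to 38836269 per library, and 3 reads on a gene of 1 kb equalled 0.0772 to 0.0813 FPKM. The label was checked against markers. Of 9 sensory neuron markers, 3 reached 0.05 FPKM (*Isl1* at 13.2, *Avil* at 0.403 and *P2rx3* at 0.247), while *Prph*, *Pou4f1*, *Scn9a*, *Scn10a*, *Scn11a* and *Calca* did not. Of 9 general neuronal markers, 5 reached it (*Uchl1* at 101.5, *Map2* at 6.70, *Snap25* at 0.463, *Syn1* at 0.135 and *Gap43* at 0.0855), and *Tubb3*, *Stmn2*, *Elavl3* and *Elavl4* did not. All 7 fibroblast markers were above it, with *Thy1* at 141.1 and *Col1a2* at 114.6. The others were *Col1a1* at 6.74, *Pdgfra* at 6.53, *Col3a1* at 2.36, *Dcn* at 0.194 and *Lum* at 0.0886. Most markers that define sensory neurons were thus near 0 in these libraries, against the label, and how reads of mouse transcripts were assigned is not known.

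The members were mostly low. Their median level was 0.392 FPKM, against 6.31 for all 14374 genes at or above 0.05, and 40 of the 87 reached 0.5 FPKM, 19 reached 5 and 13 reached 10. A mean of at least 100 reads per library lay behind 37 members and a mean of under 10 reads behind 15. In at least 1 library, 17 members had 3 reads or fewer and 8 of these had 0, whereas 79 were above 0 in all 12. The summed level of the members was 636.7 to 660.2 FPKM per library, and the 3 highest members held 45.1% of it.

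**Figure D1:**
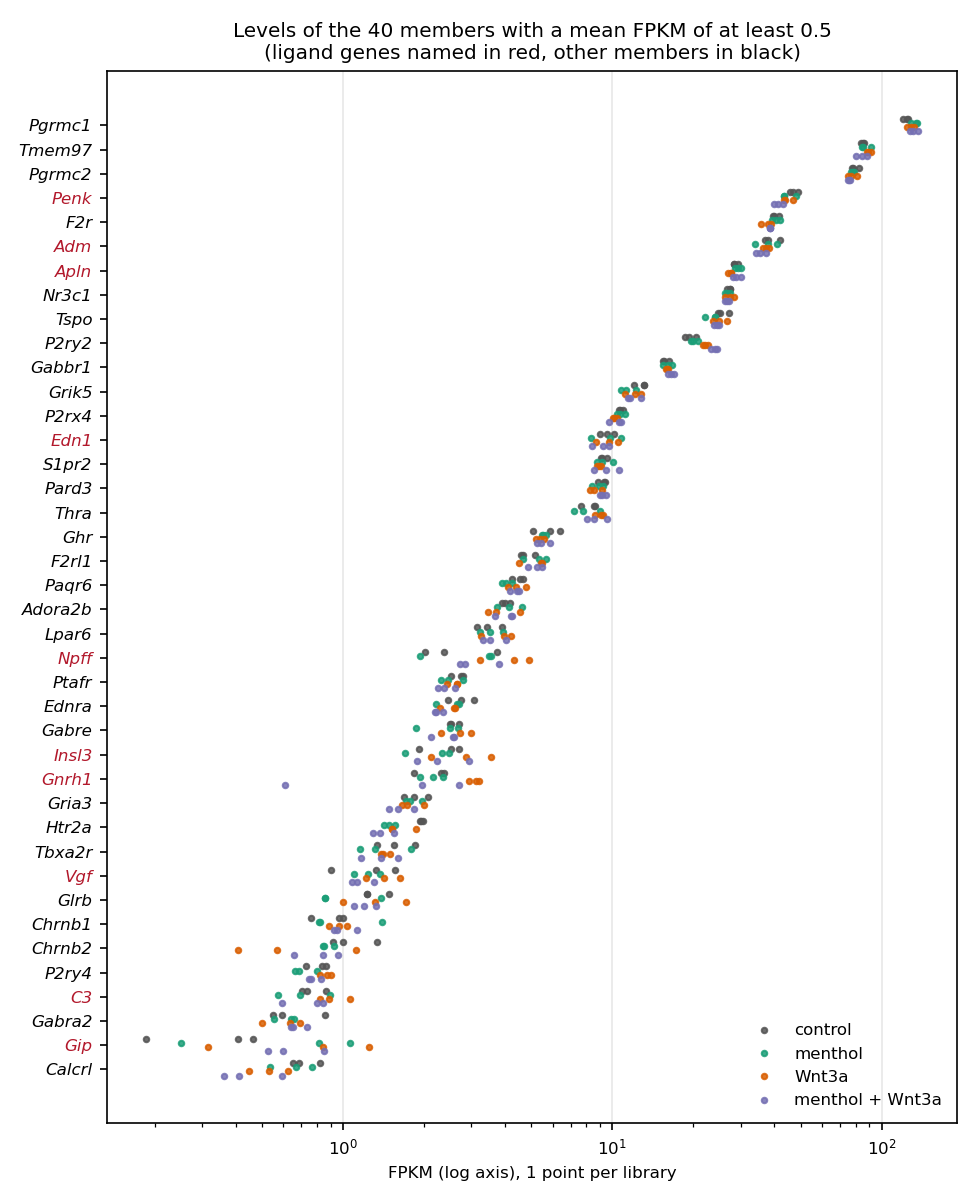
FPKM of the 40 members with a mean of at least 0.5, 1 point per library on a log axis, coloured by group, with ligand genes named in red. The levels run from *Pgrmc1* near 129 FPKM to *Calcrl* near 0.59, and the points of the 4 groups lie on top of each other for most members.

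The highest levels belonged to receptors for steroids and sterols. *Pgrmc1* and *Pgrmc2*, which encode heme-binding membrane components linked to progesterone, had means of 128.8 and 77.8 FPKM, and *Tmem97*, the sigma-2 receptor, had 86.5. *Pgrmc1* lay between 120.3 and 136.9 FPKM in the 12 libraries. *Paqr6*, a membrane progesterone receptor, followed at 4.33. Among the nuclear receptors, *Nr3c1*, the glucocorticoid receptor, had a mean of 27.0 FPKM, *Thra*, the thyroid hormone receptor α, one of 8.49 and *Thrb* one of 0.279. *Tspo*, a cholesterol-binding protein of the outer mitochondrial membrane, was at 24.7.

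Among G protein-coupled receptors, *F2r*, the thrombin receptor PAR1, was the most abundant at 39.2 FPKM. The trypsin receptor PAR2 (*F2rl1*) was at 5.10 and PAR4 (*F2rl3*) at 0.0592. Receptors for nucleotides and adenosine had 8 members of 14 genes. *P2ry2*, the Gq-coupled receptor for ATP and UTP, was at 21.4 FPKM and held 57.0% of that family's summed level, followed by the ATP-gated channel *P2rx4* at 10.5, the adenosine receptor *Adora2b* at 4.03 and the nucleotide receptor *P2ry4* at 0.794. The other 4, with *P2rx3*, the ATP-gated channel of nociceptors, among them, lay between 0.135 and 0.270. Lipid receptors were led by *S1pr2*, a receptor for sphingosine 1-phosphate, at 9.26 FPKM, with *Lpar6*, a lysophosphatidic acid receptor, at 3.62, and *S1pr1* was lowest at 0.0521. The receptor for platelet activating factor, *Ptafr*, was at 2.55, and 7 of 12 genes for prostanoid, leukotriene and platelet activating factor receptors were members. Vasoactive peptide receptors had 4 of 8, the endothelin receptor *Ednra* at 2.51, the bradykinin receptors *Bdkrb1* and *Bdkrb2* at 0.437 and 0.0828, and *Aplnr* at 0.111. Cytokine-type hormone receptors had 2 of 3, with *Ghr*, the growth hormone receptor, at 5.57 and *Lepr*, the leptin receptor, at 0.0780.

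Receptors for neuropeptides were rarer still. Opioid, somatostatin, galanin and neuropeptide Y receptors had 2 members of 15 genes, the galanin receptors *Galr3* and *Galr2* at 0.264 and 0.1705 FPKM. The somatostatin receptors *Sstr1*, *Sstr3* and *Sstr4* had 0 to 1 reads in each library. Class B receptors, which bind peptide hormones such as glucagon, secretin and parathyroid hormone, had 1 member of 12, *Calcrl*. The other peptide receptors had 4 of 22, led by *Rxfp1*, a relaxin receptor, at 0.302.

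Receptors for classical transmitters were also few. Muscarinic receptors had 0 members of 4 genes, the highest being *Chrm1* at 0.0421 FPKM on 2 to 14 reads. Serotonin, dopamine, adrenergic, histamine and trace amine receptors had 2 members of 19 genes, the serotonin receptor *Htr2a* at 1.62 and the α2A adrenergic receptor *Adra2a* at 0.0661. Metabotropic glutamate receptors had 1 of 7, *Grm4* at 0.123. Ionotropic glutamate receptors had 5 of 18 and receptors for GABA and glycine 5 of 21. Neuronal nicotinic receptor subunits had 3 of 7, led by *Chrnb2* at 0.869. Of the muscle-type nicotinic receptor, the β subunit *Chrnb1* was at 0.971 and the ε subunit *Chrne* at 0.202, while the α subunit *Chrna1* had 0 to 5 reads (0.0130 FPKM). Of 12 skeletal muscle markers, 9 were in the data, without *Myod1*, *Myog* and *Myf5*. These 9 summed to 4.48 to 7.71 FPKM per library, most of it *Tnnc1* at 4.585, the 1 marker at 1 FPKM or more. At or above 0.05 were 6 of them, with *Myh3* and *Myl1* near 0 and *Tnni1* at 0.0205. The part of these markers in the levels of the nicotinic subunits was not tested.

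Several subunits stood far above the partners with which they form a receptor. *Gabbr1*, 1 subunit of the GABA-B receptor, had a mean of 16.1 FPKM, and *Gabbr2*, with which it forms the receptor, had 0.0370 on 1 to 18 reads. *Grik5*, a kainate receptor subunit that needs *Grik1*, *Grik2* or *Grik3* to form a channel, was at 12.03 FPKM, and each of these 3 had 0 to 2 reads in every library. *Glrb*, the β subunit of the glycine receptor, had 100 to 200 reads, and its α partners *Glra1*, *Glra2* and *Glra3* had 0 to 2. The NMDA receptor subunits *Grin2d* (0.162) and *Grin3b* (0.0679) were members, and the obligatory subunit *Grin1* was at 0.0233 on 0 to 12 reads. A count of 0 allows up to 3 reads, and these floors cover counting error only.

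Peptide and protein hormones had 20 members of 58 genes. *Penk*, the precursor of the enkephalins, was at 44.6 FPKM, *Adm*, which encodes the vasodilator adrenomedullin, at 37.3, *Apln*, the precursor of apelin, at 28.6, and *Edn1*, the precursor of endothelin-1, at 9.51. The next 5 were *Npff*, *Insl3*, *Gnrh1*, *Vgf* and *Gip*, between 0.630 and 3.25. The other 11 lay between 0.0505 and 0.398 FPKM. Complement *C3* was at 0.789 and the protease *Gzma*, the only protease among the members, at 0.0916.

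Ligands and their receptors were then set side by side in 21 peptide and protein systems, which were put together after the levels were seen. In 10 systems only ligand genes were members, in 6 only receptor genes, and in 5 both. A system groups related genes, and its receptor members need not be those of its ligand members. Of the 5, the relaxin family held *Insl3* and *Rln3* with *Rxfp1*. The bombesin family held *Nmb* with *Grpr* at 0.0600 FPKM, while *Nmbr* was at 0.0172. For gonadotropin-releasing hormone, urotensin and growth hormone, 1 side only was analysed here. *Penk* at 44.6 FPKM stood beside the opioid receptors *Oprd1*, *Oprm1* and *Oprk1*, each with 0 to 1 reads per library. *Apln* at 28.6, with the second apelin receptor ligand *Apela* (listed under LOC103693925) at 0.398, stood beside the receptor *Aplnr* at 0.111. *Adm* at 37.3 stood beside *Calcrl*, the shared receptor subunit for adrenomedullin and calcitonin gene-related peptide, at 0.593. *Edn1* at 9.51 stood beside *Ednra* at 2.51 and *Ednrb* at 0.0430. The reverse held for thrombin, with *F2r* at 39.2 and prothrombin (*F2*) at 0.00768, and for growth hormone only the receptor *Ghr* was analysed, at 5.57.

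**Figure D2:**
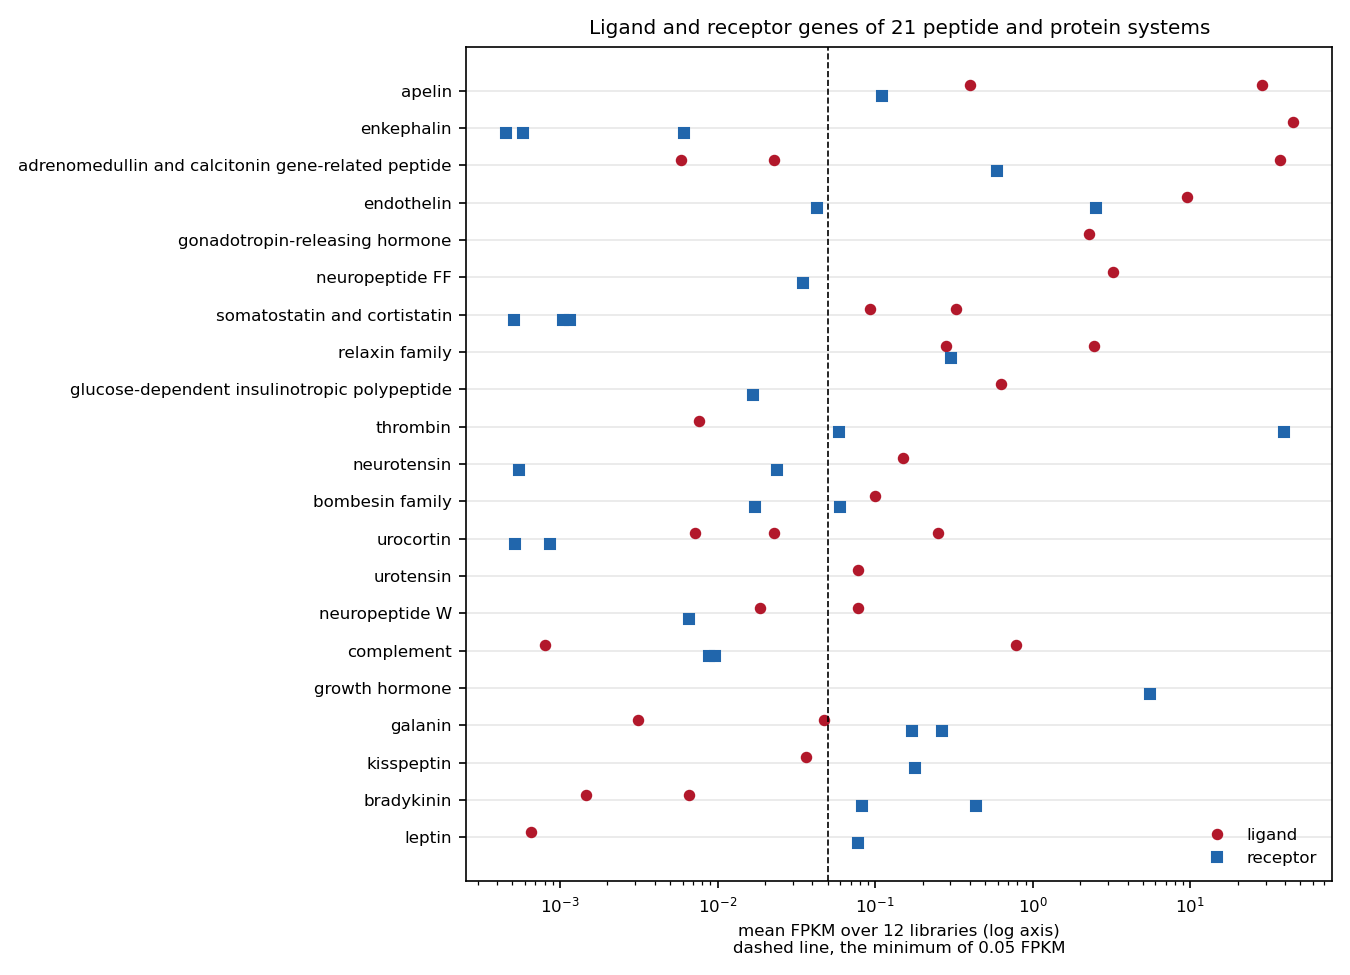
Mean FPKM over the 12 libraries (log axis) of the ligand genes (red circles) and receptor genes (blue squares) of 21 systems, with the minimum of 0.05 FPKM as a dashed line. Enkephalin has its ligand at 44.6 FPKM and all 3 receptors left of the line, and thrombin has *F2r* at 39.2 and its ligand left of the line.

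Across the treatments, *P2ry2* was the only one of the 87 members to pass the test, limma on log2(FPKM + 0.1) with Benjamini-Hochberg adjustment over 14374 genes at an adjusted p under 0.05. It was higher wherever Wnt3a was present. In control its levels were 20.5, 19.3 and 18.6 FPKM. With menthol they were 19.6, 20.8 and 19.9. With Wnt3a they were 21.7, 22.0 and 22.7, and with menthol and Wnt3a together 23.3, 24.5 and 24.1. All 6 libraries with Wnt3a lay above all 6 without it, and all 3 with both lay above all 3 with Wnt3a alone. These values rest on 2642 to 3506 reads per library.

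With both agents the mean of *P2ry2* was 24.0 ± 0.612 FPKM (SD, n = 3) against 19.5 ± 0.992 in control, 1.23 times as high (log2 fold change 0.30, SE 0.0422, limma adjusted p = 0.00523). It was the 1 member called in that comparison, in which 0.522% of all tested genes were called. Averaged over both menthol levels, Wnt3a raised it from a mean of 19.8 to 23.1 FPKM (log2 fold change 0.22 with an SE of 0.0298, limma adjusted p = 0.00516), with all 6 libraries above the other 6. It was again the 1 member called, where 0.543% of all genes were. It was also the 1 member with a difference among the 4 groups (limma adjusted p = 0.0146; 0.703% of all genes), a call that was lost without replicate 2 of menthol with Wnt3a. For Wnt3a alone against control the log2 fold change was 0.19 (limma adjusted p = 0.0989), and for both agents against menthol 0.25 (limma adjusted p = 0.0519). Neither passed in this fit, and both did by limma voom on read counts (adjusted p = 0.0216 and 0.00257). The second also passed without control replicate 1 (limma adjusted p = 0.0303). It passed too with 1 added to FPKM in place of 0.1 (limma adjusted p = 0.0498) and with a minimum of 0.5 FPKM (limma adjusted p = 0.043). Menthol alone gave 0.05 (limma adjusted p = 0.823), and menthol on top of Wnt3a 0.11 (limma adjusted p = 0.296). The interaction of menthol and Wnt3a was 0.07 (SE 0.0597, limma adjusted p = 0.866). Over 21 alternatives of the processing, both agents against control had a limma adjusted p of 7.66e-05 to 0.0421. The averaged Wnt3a comparison had one of 5.15e-05 to 0.0206 over the 20 that apply to it. In each case 1 of the alternatives was a 2-fold threshold, which leaves the adjusted p as it was. *P2ry2* did not reach that threshold, and it passed in all the others. A change over 2-fold beside the adjusted p was reached by 0 members in each of the 8 comparisons that give a fold change. Of all genes, 0.00696% reached it with menthol, with both agents against Wnt3a and with both against menthol, 0.0139% with Wnt3a, with both against control and with menthol averaged, 0.0278% with Wnt3a averaged and 0% in the interaction.

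Among the other 7 purine receptors, 3 were higher and 4 lower with Wnt3a on average, and none passed. The sum of the purine receptor family was 35.0 to 36.7 FPKM in control, 35.9 to 37.1 with menthol, 37.4 to 38.8 with Wnt3a and 39.1 to 40.7 with both, and *P2ry2* made up most of it. The summed levels of 5 of the 8 marker lists did not overlap between control and the libraries with both agents, and those of 2 did not overlap between the 6 libraries with Wnt3a and the 6 without it. The sensory neuron list summed to 10.1 to 12.3 FPKM in the 6 libraries without Wnt3a and to 14.8 to 18.5 in the 6 with it, nearly all of it *Isl1*. The fibroblast list summed to 282.4 to 289.8 in control, 262.2 to 266.5 with menthol, 272.9 to 276.6 with Wnt3a and 259.6 to 266.3 with both. The Schwann cell list, with 3 of its 5 markers at or above 0.05 FPKM and *Sox10* near 0, summed to 1.41 to 1.66 without Wnt3a and to 1.68 to 2.496 with it. The sympathetic neuroblast list had 2 of 6 markers at or above 0.05 FPKM (*Hand2* and *Gata3*), with *Phox2a*, *Th* and *Dbh* under it. It summed to 17.7 to 18.3 in control and 15.4 to 16.5 with both. The endothelial list, with 4 of 4 at or above 0.05, summed to 3.47 to 3.995 and 2.53 to 3.43. Most of that sum was *Tek*, with a mean of 3.52 in control and 2.70 with both. *Pecam1* was at 0.149 and 0.108, *Cdh5* at 0.0447 and 0.0988, and *Kdr* at 0.1015 and 0.136. The part of these lists in the *P2ry2* result was not tested, and in RNA from whole cultures more cells of a kind and more RNA per cell cannot be told apart.

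The start of *P2ry2* is shown together with that of *F2r*, because these were the 2 members whose libraries with and without Wnt3a did not overlap. Both are the 250 bases before the RefSeq start of the gene in build GRCr8, at chr1:164779489-164779738 and chr2:28620580-28620829, both on the minus strand and written 5′ to 3′, with GC boxes (GGGCGG on either strand) in capitals.
P2ry2: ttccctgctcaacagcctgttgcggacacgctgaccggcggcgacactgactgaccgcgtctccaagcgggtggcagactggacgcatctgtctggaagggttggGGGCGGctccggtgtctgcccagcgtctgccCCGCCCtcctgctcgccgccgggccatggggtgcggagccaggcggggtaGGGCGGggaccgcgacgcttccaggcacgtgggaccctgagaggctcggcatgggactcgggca
F2r: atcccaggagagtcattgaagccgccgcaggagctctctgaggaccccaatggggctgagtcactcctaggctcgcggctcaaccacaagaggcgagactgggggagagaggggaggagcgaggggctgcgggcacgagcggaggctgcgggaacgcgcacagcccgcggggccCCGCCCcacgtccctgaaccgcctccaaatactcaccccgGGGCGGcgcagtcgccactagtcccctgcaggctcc
The *P2ry2* stretch holds 3 GC boxes and is 71.2% G and C, and the *F2r* stretch holds 2 and is 69.6% G and C, where the median of all promoters is 52.0%. A GC box was present in 32.4% of 27457 promoters of this length and in 42.4% of those of the 66 members found in the table. The letters CTTTGA or CTTTGT, the core bound by the TCF/LEF factors of the Wnt pathway, were searched on both strands and occur in neither stretch, in 27.2% of all promoters and in 24.2% of those of the members. The cAMP response element TGACGTCA is in neither stretch and in 1.7% of all promoters. These are matches of letters and not sites shown to be bound.

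*F2r* had the opposite order and did not pass. Its levels were 41.6, 39.97 and 39.5 FPKM in control, 39.2, 40.5 and 41.9 with menthol, 37.8, 35.6 and 38.7 with Wnt3a, and 38.5, 38.4 and 38.4 with both. The 6 libraries with Wnt3a all lay below the 6 without it. The averaged log2 fold change was −0.09 (SE 0.0261, 95% interval −0.149 to −0.0368, limma adjusted p = 0.147), with a mean of 37.9 FPKM against 40.4. Members whose libraries did not overlap in this 6 against 6 comparison numbered 2 of 87 (2.3%), where 0.995% of all tested genes did so.

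*Penk*, the most abundant ligand gene, was at 47.1, 48.9 and 45.7 FPKM in control, 43.3, 43.4 and 48.2 with menthol, 43.6, 47.1 and 43.3 with Wnt3a, and 43.1, 40.01 and 41.4 with both. The libraries with both agents were the lowest and did not overlap any other group. Against control the log2 fold change was −0.19 (SE 0.0482, limma adjusted p = 0.121), with adjusted p values of 0.0373 to 0.323 over the alternatives, and limma voom on read counts was the 1 setting under 0.05.

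*Htr2a*, the serotonin receptor 5-HT2A, was highest in control. Its levels there were 1.99, 1.94 and 1.93 FPKM, against 1.48, 1.43 and 1.56 with menthol, 1.52, 1.53 and 1.87 with Wnt3a, and 1.55, 1.37 and 1.30 with both. Control did not overlap any treated group, on 258 to 404 reads per library. The log2 fold change was −0.37 with menthol (SE 0.104, limma adjusted p = 0.323) and −0.45 with both (SE 0.104, limma adjusted p = 0.0867), comparisons that share the control libraries. Limma voom gave an adjusted p of 0.019 for both agents against control, the lowest of 0.019 to 0.254 over the alternatives.

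**Figure D3:**
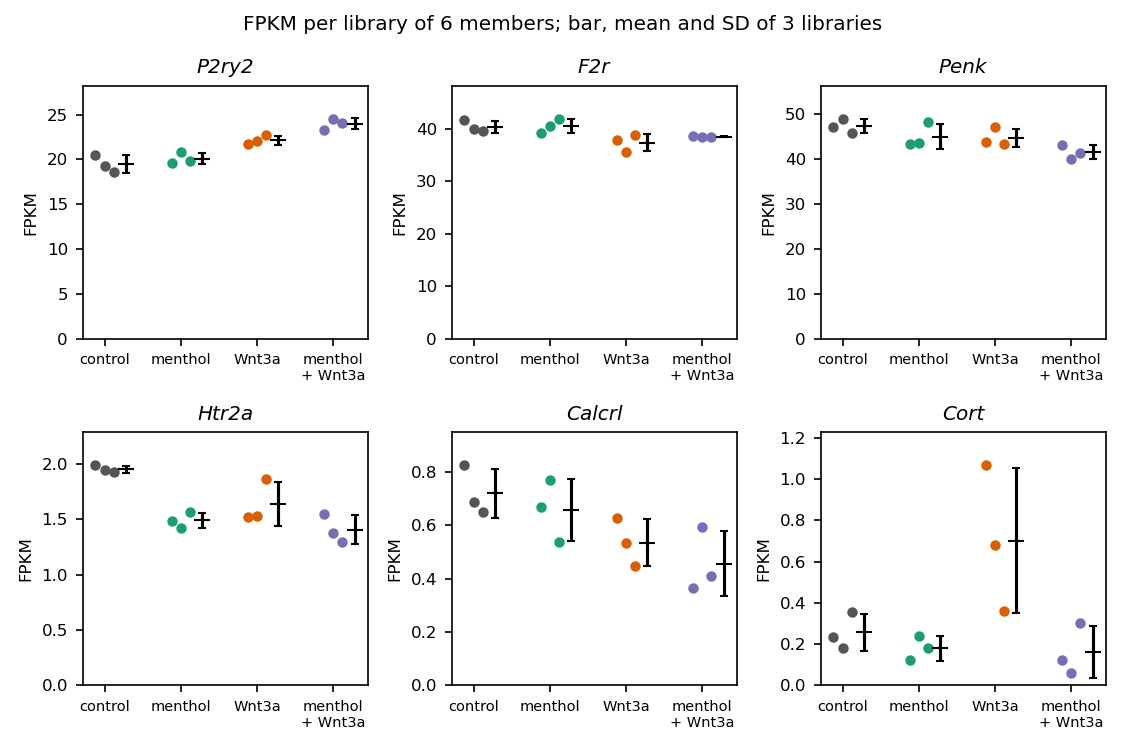
FPKM of 6 members in each library by group (points), with the mean and SD of 3 libraries as a bar beside them, each axis starting at 0. *P2ry2* is higher in all 6 libraries with Wnt3a, *F2r* slightly lower in all 6, *Htr2a* lower in every treated library than in control, and *Cort* spreads from 0.36 to 1.07 FPKM in the Wnt3a group.

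*Calcrl* was at 0.825, 0.687 and 0.651 FPKM in control and at 0.363, 0.596 and 0.411 with both agents, and the means of the menthol (0.658) and Wnt3a (0.536) groups lay between. Control and the group with both did not overlap, and the log2 fold change was −0.58 (SE 0.187, limma adjusted p = 0.219). *Ptger4*, a prostaglandin E2 receptor, was on 46, 87 and 68 reads in the control libraries, and on 31, 32 and 26 in those with menthol (log2 fold change −0.69, SE 0.218, limma adjusted p = 0.404). *Pgrmc1* was at 124.8, 120.3 and 124.4 FPKM in control and 128.1, 134.0 and 134.8 with menthol, which did not overlap (log2 fold change 0.10, SE 0.034, limma adjusted p = 0.427).

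The largest log2 difference in each of the 8 comparisons belonged to a member under 0.5 FPKM. *Uts2b*, which encodes a urotensin II-related peptide and was chosen after its values were seen, had 9, 1 and 6 reads in the control libraries. Menthol libraries held 6, 1 and 1, Wnt3a libraries 1, 0 and 0, and those with both agents 0, 1 and 1. Its fitted difference with Wnt3a, which depends on the pseudocount at such counts, was −1.22 (SE 0.416, limma adjusted p = 0.224). *Cort*, the precursor of cortistatin, was on 4, 3 and 6 reads in control, on 2, 4 and 3 with menthol, 18, 11 and 6 with Wnt3a, and 2, 1 and 5 with both. Wnt3a alone against control gave a log2 difference of 1.10 with an SE of 0.371 (limma adjusted p = 0.221) and both agents against Wnt3a one of −1.63 with the same SE (limma adjusted p = 0.115), and these comparisons share the Wnt3a libraries. *Gnrh1*, the precursor of gonadotropin-releasing hormone, had 61, 60 and 57 reads with Wnt3a and 38, 12 and 52 with both. Its log2 fold change was −0.99 (SE 0.349, limma adjusted p = 0.274), between −1.40 and −0.41 with 1 library left out. *Chrne* was at 0.164, 0.167 and 0.0829 FPKM with Wnt3a and 0.276, 0.339 and 0.214 with both (log2 fold change 0.67, SE 0.214, limma adjusted p = 0.236). None of these passed.

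Counted over all members, small p-values were about as frequent as among all tested genes, or less frequent. With menthol against control, 0 members passed the adjusted p (0.0626% of all genes did), 8 had an unadjusted p under 0.05 (9.2%, against 8.47%), and 10 did not overlap (11.5%, against 14.8%). With Wnt3a against control, 0 members passed (0.188% of all genes), 8 had an unadjusted p under 0.05 (9.2%, against 13.2%), and 16 did not overlap (18.4%, as of all genes). With both agents against Wnt3a, 0 passed (0.0487% of all genes), 9 had an unadjusted p under 0.05 (10.3%, against 12.9%), and 11 did not overlap (12.6%, against 16.3%). With both against menthol, 0 passed (0.0765% of all genes), 3 had an unadjusted p under 0.05 (3.45%, against 6.55%), and 7 did not overlap (8.05%, against 11%). With both against control, 8 members had an unadjusted p under 0.05 (9.2%, against 12%), and 13 did not overlap (14.9%, against 18.4%). The interaction had 0 members past the adjusted p (0% of all genes) and 3 at an unadjusted p under 0.05 (3.45%, against 6.46%). Menthol averaged over both Wnt3a levels had 0 past the adjusted p (0.8% of all genes) and 10 at an unadjusted p under 0.05 (11.5%, against 13.7%), and 0 members separated its 6 libraries from the other 6 (1.26% of all genes). Wnt3a averaged over both menthol levels had 8 at an unadjusted p under 0.05 (9.2%, against 12.4%), and any difference among the groups had 10 (11.5%, against 15.2%). Limma voom on read counts called more genes in each of the 9 comparisons. It called 0 members with menthol (0.424% of all genes), 1 with Wnt3a (1.86%), 0 with both against Wnt3a (0.925%), 1 with both against menthol (0.264%), 3 with both against control (1.83%), 0 for the interaction (0.00696%), 1 with menthol averaged (1.95%), 1 with Wnt3a averaged (1.91%) and 2 for any difference (3.49%).

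The direction of the members was also counted. With menthol averaged, 32 of the 87 were higher and 55 lower (47.7% of all genes were higher; median log2 fold change −0.05, against −0.004 for all genes), and with Wnt3a averaged 48 were higher and 39 lower (52.3% of all genes were higher; median 0.01, against 0.004). Of the 20 peptide and protein hormone genes, 4 were higher and 16 lower with menthol averaged (median −0.08), and 0 passed. By family, the 4 genes of the nuclear receptors and *Tspo* were all higher with Wnt3a averaged (median 0.05), and 6 of 7 prostanoid, leukotriene and platelet activating factor receptors were lower (median −0.07), with 0 past the adjusted p in either. The 8 purine receptors divided into 4 higher and 4 lower for each agent. Ionotropic glutamate receptors had 1 of 5 higher with menthol averaged and 3 of 5 with Wnt3a averaged, with fold changes between −0.10 and 0.32 on the log2 scale, and receptors for GABA and glycine had 2 of 5 and 4 of 5, between −0.23 and 0.12. The 22 ligand genes summed to 134.1 to 139.9 FPKM in control and to 123.0 to 132.3 with both agents, and the 64 receptor genes to 502.0 to 509.7 and 504.7 to 516.0. *Penk* and *Adm* were the largest parts of the ligand sum.

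**Figure D4:**
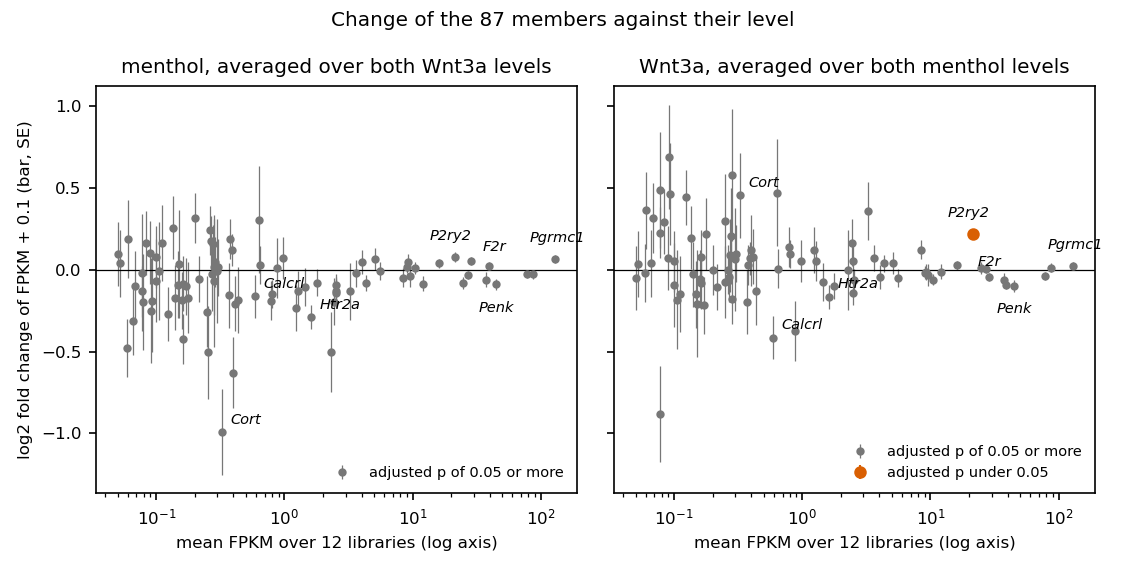
Log2 fold change (of FPKM + 0.1, bars are SE) of each of the 87 members against its mean FPKM on a log axis, for menthol (left) and Wnt3a (right), each averaged over both levels of the other agent. *P2ry2* (orange) is the 1 member at an adjusted p under 0.05, and the spread around 0 narrows as the level rises.

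How small a change could be seen depended on the level. Among the 19 members at 5 FPKM or more, the highest group mean was 1.02 to 1.23 times the lowest, with *P2ry2* at the upper end, and the median SE of a log2 fold change between 2 groups was 0.049. The 95% interval of each of these 19 lay within 1.5-fold of no change in all 8 comparisons, the farthest bound being 1.31-fold, for *P2ry2*. For the 21 members between 0.5 and 5 FPKM the median SE was 0.167, and with both agents against control 15 of the 21 had an interval within 1.5-fold. For the 47 members under 0.5 FPKM the median SE was 0.282, and 3 of the 47 had such an interval in that comparison. Averaged over 6 libraries a side, 21 of the 47 had one for menthol and 24 for Wnt3a.

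The signaling partners of the receptors were taken from a list of G protein subunits, receptor kinases, arrestins and Rgs regulators, of which 41 genes were tested. By limma, 0 of them passed the adjusted p in each of the 9 comparisons. With an unadjusted p under 0.05 there were 2 for menthol (4.88%, against 8.47% of all genes), 6 for Wnt3a (14.6%, against 13.2%), 8 for both against Wnt3a (19.5%, against 12.9%), 1 for both against menthol (2.44%, against 6.55%) and 5 for both against control (12.2%, against 12%). There were 1 for the interaction (2.44%, against 6.46%), 8 for menthol averaged (19.5%, against 13.7%), 5 for Wnt3a averaged (12.2%, against 12.4%) and 7 for any difference (17.1%, against 15.2%). Groups did not overlap for 12 of the 41 with Wnt3a against control (29.3%, against 18.4% of all genes) and for 11 with both against control (26.8%, against 18.4%). They did not overlap for 9 with both against Wnt3a (22%, against 16.3%), 6 with menthol (14.6%, against 14.8%) and 4 with both against menthol (9.76%, against 11%). For the averaged comparisons there were 0 with menthol (0%, against 1.26%) and 1 with Wnt3a (2.44%, against 0.995%). The smallest limma adjusted p over all comparisons was 0.0523, for Wnt3a averaged.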

How the data were processed

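RNA of 12 libraries, 3 for each of 4 groups, was sequenced, grouped by the titles given in the labels. The authors isolated RNA in TRIzol, used the VAHTS Universal V6 library kit, and ran fastp, HISAT and HTSeq-count on the reads. The submitters' notes name the build mRatBN7.2, and the strand setting, the annotation and the versions of fastp, HISAT and HTSeq-count are not given in the sources used here. The authors deposited FPKM values per gene and library, unpooled, with KEGG pathways beside them. FPKM corrects for gene length and for mapped fragments, so it is a share of each library.

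The deposited FPKM values moved in steps of 1 read, and whole reads were recovered for 21556 of 21556 genes (largest distance from a whole read 2.3e-10, tolerance 0.001). The 1804 genes above 0 in 1 library only had no second value to check this against. Groups were compared with limma 3.58.1 in R 4.3.3 (lmFit, eBayes with trend) on log2(FPKM + 0.1), 4 groups together, without a replicate block, over 14374 genes with a mean of at least 0.05 FPKM, Benjamini-Hochberg adjusted. Fold changes on this scale understate those of low genes. The FPKM minimum, pseudocount, scaling, fit and library set were varied, with limma voom on the recovered reads as the count test. The scripts were tested on simulated data.

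The members, families and lists were chosen with earlier results of these data known. Named were the 15 highest members, the highest of each family, those past the adjusted p, up to 3 members per comparison with the smallest p and groups without overlap, those at the minimum and the muscle-type nicotinic subunits. Other genes named, such as receptor partners, were chosen after their values were seen. All 87 members matched RefSeq by gene number, and 2 differ in symbol. RefSeq promoters are of build GRCr8. Some genes of the marker lists are not reported here.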

Additional observations from a re-analysis of the deposited data

How the results depend on the processing

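Counts of members past the adjusted p moved under few settings, and the cause was not tested except where a setting's own construction gives it. Direction was checked for members past the adjusted p and for up to 3 per comparison with the smallest p and groups without overlap. Of the fold changes checked, none changed direction, and other named values were not checked. Limma voom on read counts gave 1 member for Wnt3a against control (1.86% of all genes), 1 for both agents against menthol (0.264%), 3 for both against control (1.83%), 1 for menthol averaged (1.95%) and 2 for any difference among the groups (3.49%). A pseudocount of 1 and a minimum of 0.5 FPKM each gave 1 for both agents against menthol (*P2ry2*, limma adjusted p = 0.0498 and 0.043; 13 and 11 genes in all). A 2-fold threshold gave 0 for both against control (2 genes in all) and 0 for Wnt3a averaged (4 genes). With 1 library left out, the count ranged from 0 to 1 for Wnt3a against control (*Chrnb2*, the neuronal nicotinic β2 subunit, without Wnt3a replicate 3, log2 fold change −1.01, limma adjusted p = 0.0462, among 141 genes in all), from 0 to 1 for both against menthol (1 without control replicate 1, among 13 genes), and from 0 to 1 for any difference (0 without replicate 2 of menthol with Wnt3a, with 42 genes). Of the other settings of these counts, 172 left them unchanged or within 1.5 times.

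Same-numbered replicates did not deviate together over all genes (correlations −0.0412 to 0.0498 over 18 pairs, 0 over 0.1). This cannot show whether some genes shared a batch, and the labels do not say. The replicate block changed the genes called from 9 to 13 with menthol, 27 to 36 with Wnt3a and 7 to 21 with both against Wnt3a. Calls went from 75 to 94 with both against control, 115 to 123 with menthol averaged and 78 to 110 with Wnt3a averaged. For any difference they went from 101 to 121, and with both against menthol from 11 to 8. With the replicate block, *P2ry2* had a limma adjusted p of 0.0105 for both agents against control, 0.01 for Wnt3a averaged and 0.0257 for any difference, and the count of members past the adjusted p was 1 in each, as without the block. Members under 0.5 FPKM were limited by depth. Replicate libraries were farther apart than counting error alone (chi-square per degree of freedom 3.53 to 7.61).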
